A study of Mus musculus with 8 samples.

Results

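Most of the genes described here build the brush border, the carpet of microvilli on the free surface of gut epithelial cells, and the keratin web beneath it. The set was a named list of 29 genes: 3 villin-family members, 8 genes of actin bundling and protrusion growth, 2 linkers of membrane to actin, 4 keratins, 5 genes of the intermicrovillar adhesion complex, 5 further myosins, and Fbxl21 and Gas2l3. All 29 were among the 53655 gene symbols of the count table. Avil, Espn and Krt18 were set apart in that list as tuft-type members, which left 26 taken as general to enterocytes, the absorptive cells of the gut. Fbxl21 and Gas2l3 were counted among these 26.

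RNA was sequenced from tuft cells, rare chemosensory cells of the epithelium, sorted from the small intestine of naïve mice. All animals carried a red reporter for Il25 on 1 allele (Il25-RFP/+) and a green Chat reporter transgene (Chat-GFP(Tg+)), and their age and sex were not given in the labels. Both gates were CD45-negative, EPCAM-positive and Il25-RFP-positive. Cells without green signal (Chat-neg) and with it (Chat-pos) gave 4 libraries each, so the comparison asks how tuft cells that do or do not report choline acetyltransferase, the enzyme that makes acetylcholine, differ. No label ties a library to an animal. The p-values therefore rest on the spread among these libraries alone, which may be technical.

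A microvillus is a finger of membrane around a bundle of parallel actin filaments. Villin, espin and plastin cross-link the filaments, Eps8 and I-BAR proteins act at the tips, ezrin and myosins tie the core to the membrane, and protocadherins link neighbouring tips to each other. Tuft cells are named for a tuft of unusually long and stiff microvilli whose actin bundles run deep into the cell. Advillin and keratin 18 are standard markers of these cells.

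Depth differed between the gates, with 87642 to 1176880 counts in named genes in Chat-neg and 1757401 to 2541955 in Chat-pos. The smallest library, Chat-neg replicate 1, gave 1898 counts over the 29 genes against 21285 to 96712 in the others. It held the lowest Chat-neg value of 18 of 28 tested members, and of 47.7% of all tested genes. The members made up 2.2% of its named-gene counts, against 3.3 to 3.5% in the other Chat-neg libraries. The part of depth in this was not tested. Chat itself rose from 117 ± 22.5 to 330.5 ± 34.1 CPM (CPM are counts scaled to a common library size by the trimmed mean of M-values, TMM; n = 4 each, ± SD; edgeR adjusted p = 6.28e-05). Of 15 tuft cell markers, all tested, 7 were higher in Chat-pos, among them Gnat3, a taste G protein (log2 difference 2.24), Il25 (1.12), Rgs13 and Lrmp (0.99 each), Sh2d6 (0.93) and Gfi1b (0.80). Of all tested genes edgeR called 3.62% higher (adjusted p under 0.05). Without Chat-neg replicate 2, 3 of the 15 were called higher. Of 19 enterocyte markers edgeR called 0, 2 had an unadjusted p under 0.05 and DESeq2 called 1. Log2 differences lay above 0 for 9 of these 19 genes (median over all 19: -0.02). The most abundant were Fabp1 (0.35) and Apoa1 (0.66). The summed level of all 19 ran from 22803 to 46392 CPM in Chat-neg and from 34522 to 56220 CPM in Chat-pos. The part of this signal in the members' levels was not tested, and in sorted bulk samples fewer cells of a type and less RNA per cell cannot be told apart.

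Of the 28 members with enough counts to test, 4 were higher in Chat-pos and 0 were lower (edgeR's quasi-likelihood test, Benjamini-Hochberg adjusted p under 0.05 over 8919 genes). Over all tested genes 3.62% were called higher and 2.87% lower, 6.49% in either direction. The 4 were Espn, the actin bundler espin, Eps8l3, a relative of the actin regulator Eps8, Cdhr2, a protocadherin of the microvillar tip, and Fbxl21, an F-box protein of the ubiquitin system known for its action on cryptochromes. They rose by 0.68 to 0.84 on the log2 scale. At an unadjusted p under 0.05, 7 members were higher, the other 3 being Krt8, Cdhr5 and Baiap2l1, and 2 were lower, Krt19 and Baiap2l2, against 10.9% and 9.88% of all genes. DESeq2 called 6 members higher and 0 lower. The members were chosen with earlier results of these data known. Shares of members set against all genes therefore describe the list and do not test it. The median log2 difference was 0.18 over the members and -0.02 over all tested genes, and 20 of 28 members lay above 0 against 48.5% of all genes. With total count scaling these medians were 0.05 and -0.14, and 2 members were higher, Espn and Eps8l3. Without Chat-neg replicate 2 or Chat-neg replicate 4, edgeR called 0 members higher, and without Chat-pos replicate 3 it called Espn alone, as it did without Chat-pos replicates 2 and 3, the libraries rich in Paneth cell markers. The split over all genes with total count scaling turned from 323 higher and 256 lower to 225 higher and 380 lower.

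**Figure D1:**
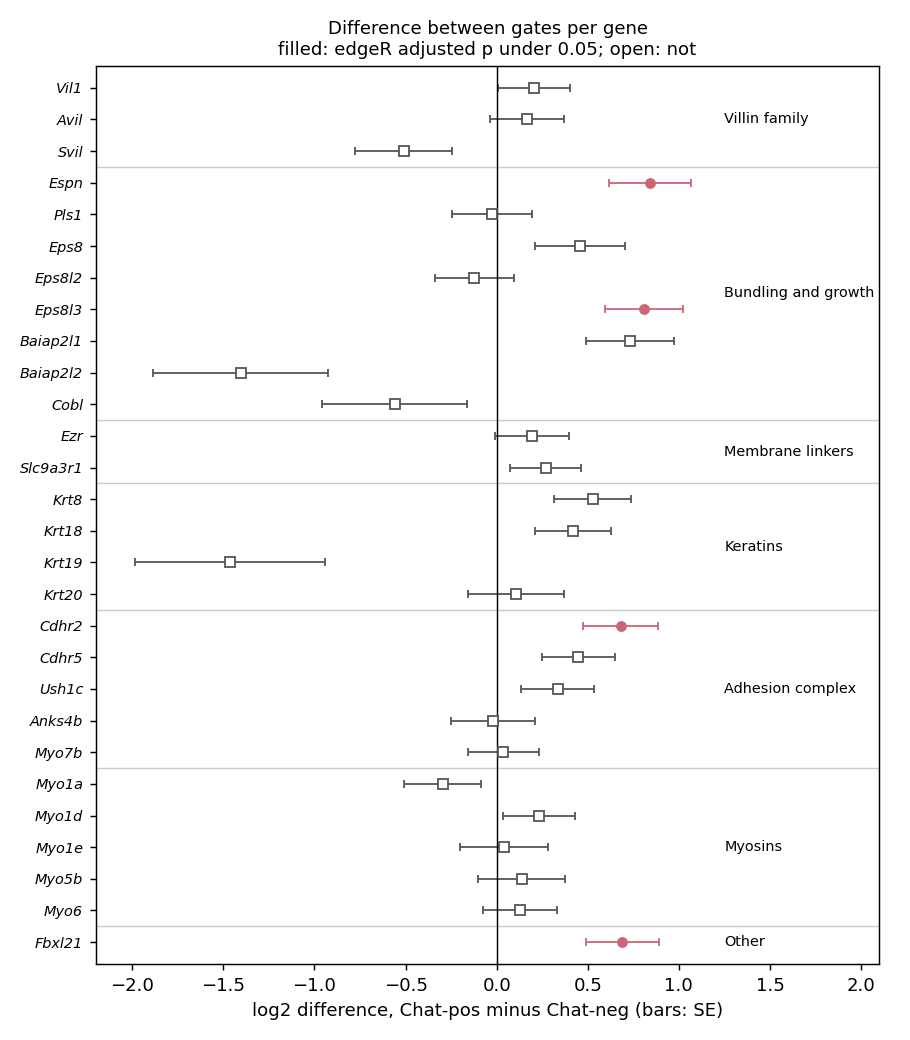
Log2 difference between Chat-pos and Chat-neg (x axis) for the 28 tested brush border and microvillar genes, grouped by role, with bars for the SE and filled points for an edgeR adjusted p under 0.05. The 4 filled points, Espn, Eps8l3, Cdhr2 and Fbxl21, lie between 0.68 and 0.84, while Krt19 and Baiap2l2 lie farthest below 0 with the longest bars.

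The sequence just before the start of each called gene, and of the tuft-type genes Avil and Krt18, is given to show the letters there. Sequences are from RefSeq on GRCm38.p6, where 22 of the 29 members were matched to a window, and span up to 200 bases before the start, cut where an annotated exon begins. Espn has 3 annotated starts, and the outermost is shown. The counts do not tell which start was used. Letters are 5′ to 3′ along the gene's own strand. Capitals mark matches, on either strand, to 7 motifs, those of POU, HNF4, HNF1, CDX, GATA and KLF factors and the TATA box, whose letters are given after the sequences.
Avil, chr10:127000509-127000708, plus strand: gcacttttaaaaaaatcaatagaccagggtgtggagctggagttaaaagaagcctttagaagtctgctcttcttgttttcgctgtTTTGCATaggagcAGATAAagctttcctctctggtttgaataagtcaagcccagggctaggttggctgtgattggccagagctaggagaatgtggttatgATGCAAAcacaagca
Krt18, chr15:102028016-102028179, plus strand: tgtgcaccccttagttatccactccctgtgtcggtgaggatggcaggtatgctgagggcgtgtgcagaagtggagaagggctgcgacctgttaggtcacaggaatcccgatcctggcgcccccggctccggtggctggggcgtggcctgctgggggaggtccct
Espn, chr4:152152390-152152589, minus strand: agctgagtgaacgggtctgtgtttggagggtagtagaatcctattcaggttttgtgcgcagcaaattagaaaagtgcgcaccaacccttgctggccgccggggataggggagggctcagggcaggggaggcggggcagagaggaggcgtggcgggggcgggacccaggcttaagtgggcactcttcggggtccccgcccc
Eps8l3, chr3:107877030-107877228, plus strand: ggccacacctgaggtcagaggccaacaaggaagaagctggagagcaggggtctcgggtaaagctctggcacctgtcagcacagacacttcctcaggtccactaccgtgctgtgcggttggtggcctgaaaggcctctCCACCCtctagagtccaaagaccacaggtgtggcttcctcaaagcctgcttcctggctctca
Cdhr2, chr13:54701263-54701460, plus strand: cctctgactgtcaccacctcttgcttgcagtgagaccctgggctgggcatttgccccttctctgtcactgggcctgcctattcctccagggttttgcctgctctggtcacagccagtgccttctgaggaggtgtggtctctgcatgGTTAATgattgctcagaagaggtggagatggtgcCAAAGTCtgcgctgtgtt
Fbxl21, chr13:56522272-56522471, plus strand: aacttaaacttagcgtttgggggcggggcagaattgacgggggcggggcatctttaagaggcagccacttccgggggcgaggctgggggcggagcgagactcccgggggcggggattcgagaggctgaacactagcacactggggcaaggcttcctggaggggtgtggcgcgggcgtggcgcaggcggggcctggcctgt

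The POU octamer core, ATGCAAA, occurred at 2 places before Avil and before no other member with a window. It was thus in 1 of 25 member windows, against 3.28% of all 32817 windows of 200 bases. POU2F3, the factor that tuft cells need, is a POU protein. Avil also held the GATA motif AGATAA, found in 7.80% of all windows. Before Cdhr2 stood the HNF1 motif GTTAAT, found in 5.06% of all windows and also before Anks4b. It was followed by the HNF4 motif CAAAGTC, found in 3.04%, and both factors are known from enterocytes. Of 22 members with a window, 8 held the KLF motif CCACCC, among them Eps8l3 and, at an inner start, Espn. These were 8 of 25 member windows, against 24.1% of all windows. The CDX motif TTTATG (8.52% of all windows) stood before Cdhr5, Myo1e and an inner start of Espn. Krt20 was the 1 member with the TATA box TATAAA (9.96%). Neither the outermost Espn start nor Fbxl21 nor Krt18 held any of the 7. A match is a description of letters, and a window without one says nothing on the factor.

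Villin and advillin, are close relatives that cap, sever and bundle actin, and neither gene passed the test. Avil stood at 966, 1241, 1339 and 1209.8 CPM in Chat-neg replicates 1 to 4 and at 1529, 1404, 1221 and 1200.1 CPM in Chat-pos replicates 1 to 4. The groups overlapped, with Chat-neg replicate 1 lowest of all. The log2 difference was 0.17 ± 0.20 (SE; edgeR adjusted p = 0.71). Vil1, the villin of all absorptive brush borders, read 791, 888, 1045 and 945 CPM in Chat-neg and 1125, 1081, 1024 and 1009 CPM in Chat-pos. These ranges overlapped too, at 917 ± 106 against 1059.8 ± 53.2 CPM (n = 4 each, ± SD; log2 difference 0.20 ± 0.20, edgeR adjusted p = 0.619). Avil shares 165 exon bases with Tsfm on the other strand, which unstranded counts cannot separate. Svil, supervillin, a larger relative that binds actin and myosin at the membrane, ran from 58.6 to 128 CPM in Chat-neg and from 34.0 to 75.3 CPM in Chat-pos (-0.51 ± 0.27, edgeR adjusted p = 0.275).

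Per kilobase of exon, Avil exceeded Vil1 in every library. That ratio of levels was 1.35 ± 0.0774 in Chat-neg and 1.32 ± 0.0875 in Chat-pos (n = 4 each, ± SD). The log2 count ratio of Avil to Vil1 moved by -0.04 ± 0.06 (SE) between the gates (exact two-sided permutation test, p = 0.486, adjusted p = 0.583 over 6 ratios). With 4 against 4 libraries the smallest p is 0.0286, and a lone ratio at that value does not pass adjustment over 6. No other ratio had so small an SE.

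Espn, a tuft-type member like Avil and Krt18, had the largest difference of the members called. Espin binds parallel actin filaments and lengthens the bundles it joins, in hair cells of the ear as in brush borders. It read 291, 598, 707 and 507 CPM in Chat-neg and 1051, 965, 919 and 916 CPM in Chat-pos. All Chat-pos libraries lay above all Chat-neg libraries and close together, while Chat-neg replicate 1 was far below its group. The means were 526 ± 177 and 963 ± 62.9 CPM (n = 4 each, ± SD; log2 difference 0.84 ± 0.22, edgeR adjusted p = 0.0191). Without Chat-neg replicate 1 the difference was 0.68 ± 0.16 (edgeR adjusted p = 0.0108). The call was lost without Chat-neg replicate 2 (edgeR adjusted p = 0.0713) or Chat-neg replicate 4 (edgeR adjusted p = 0.0646). The gene lies on chromosome 4 from 152120331 to 152152371, minus strand, in GRCm38.

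Pls1, plastin 1, another bundler of microvillar actin, gave 256, 383, 308 and 176 CPM in Chat-neg and 271, 252, 333 and 261 CPM in Chat-pos. Its groups overlapped fully, with a log2 difference of -0.02 ± 0.22 (edgeR adjusted p = 0.974) whose sign changed with the setting. Per kilobase, Espn stood at 0.924 ± 0.363 of the level of Pls1 in Chat-neg and at 1.64 ± 0.243 in Chat-pos (n = 4 each, ± SD). The length pools all annotated exons, 8.27 kb for Espn and 3.89 kb for Pls1, so these levels depend on which transcripts were made. In CPM over all libraries Espn averaged 744 and Pls1 280. The log2 count ratio of Espn to Pls1 differed by 0.91 ± 0.32 (SE), with 1 Chat-pos library inside the Chat-neg range (exact two-sided permutation test, p = 0.0571, adjusted p = 0.114 over 6 ratios).

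Eps8l3 belongs to the family of Eps8, which caps and bundles actin at microvillar tips. Its levels were 233, 246, 343 and 194 CPM in Chat-neg and 457, 385, 526 and 430.04 CPM in Chat-pos. The groups did not overlap, and the lowest Chat-pos library stood above the highest Chat-neg library, replicate 3. The log2 difference was 0.81 ± 0.21 (254 ± 63.2 against 449.6 ± 58.9 CPM, n = 4 each, ± SD; edgeR adjusted p = 0.0182). Its call was lost without Chat-neg replicate 2, Chat-neg replicate 4 or Chat-pos replicate 3 (edgeR adjusted p = 0.0992, 0.0953 and 0.0673). Eps8l3 shares 964 exon bases of its 2271 with 4933431E20Rik on the other strand, so part of its counts could be of that gene. It lies on chromosome 3 from 107877229 to 107892900, plus strand.

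Eps8, the founding member, was scarce at 34.9, 58.6, 57.0 and 48.1 CPM in Chat-neg and 54.7, 67.2, 103 and 66.1 CPM in Chat-pos. The ranges overlapped at their edges, Chat-pos replicate 3 was the highest, and the difference did not pass (0.46 ± 0.25, edgeR adjusted p = 0.299). Eps8l2 ran from 91.5 to 172 CPM in Chat-neg and from 95.1 to 136 CPM in Chat-pos (-0.12 ± 0.22, edgeR adjusted p = 0.806), and it shares 1729 exon bases with B230206H07Rik. The log2 count ratio of Eps8l3 to Eps8 differed by 0.36 ± 0.22 (SE; exact two-sided permutation test, p = 0.2, adjusted p = 0.3 over 6 ratios), so this pair was not shown to change unequally. Eps8l2 was in no ratio.

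The I-BAR proteins bend membrane outward and recruit Eps8, and their genes had differences of opposite sign. Baiap2l1, also known as IRTKS, read 23.3, 51.0, 56.1 and 38.5 CPM in Chat-neg and 87.1, 83.8, 66.2 and 75.3 CPM in Chat-pos. All Chat-pos values were the higher ones, yet the test was missed by a narrow margin (0.73 ± 0.24, edgeR adjusted p = 0.0644), and none of 18 alternative analyses called it. Baiap2l2, known from brush borders and hair cells, read 46.5, 22.9, 13.8 and 19.3 CPM in Chat-neg and 4.35, 7.17, 5.20 and 13.9 CPM in Chat-pos. Chat-neg replicate 1, where the value rests on 4 counts, was highest, and Chat-pos replicate 4 just reached the Chat-neg range. Its log2 difference of -1.41 ± 0.48 did not pass (edgeR adjusted p = 0.0748), except without Chat-pos replicate 4 (-1.86 ± 0.52, edgeR adjusted p = 0.0311) and with limma-voom (limma adjusted p = 0.0346).

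In Chat-neg replicate 1 Baiap2l2 had 4 counts and Baiap2l1 had 2, so the ratio there is loosely set. The log2 count ratio of Baiap2l2 to Baiap2l1 was 0.85, -1.13, -1.99 and -0.97 in the Chat-neg libraries, and it was -4.23, -3.51, -3.61 and -2.42 in the Chat-pos libraries. It was the only ratio of 6 whose groups did not overlap, with a difference of -2.63 ± 0.70 (SE; exact two-sided permutation test, adjusted p = 0.114; unadjusted p = 0.0286, which no arrangement of these libraries can go below). Cobl, cordon-bleu, an actin nucleator of microvilli, was the scarcest tested member, at 9.95 to 24.2 CPM over all libraries (-0.56 ± 0.40, edgeR adjusted p = 0.464).

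**Figure D2:**
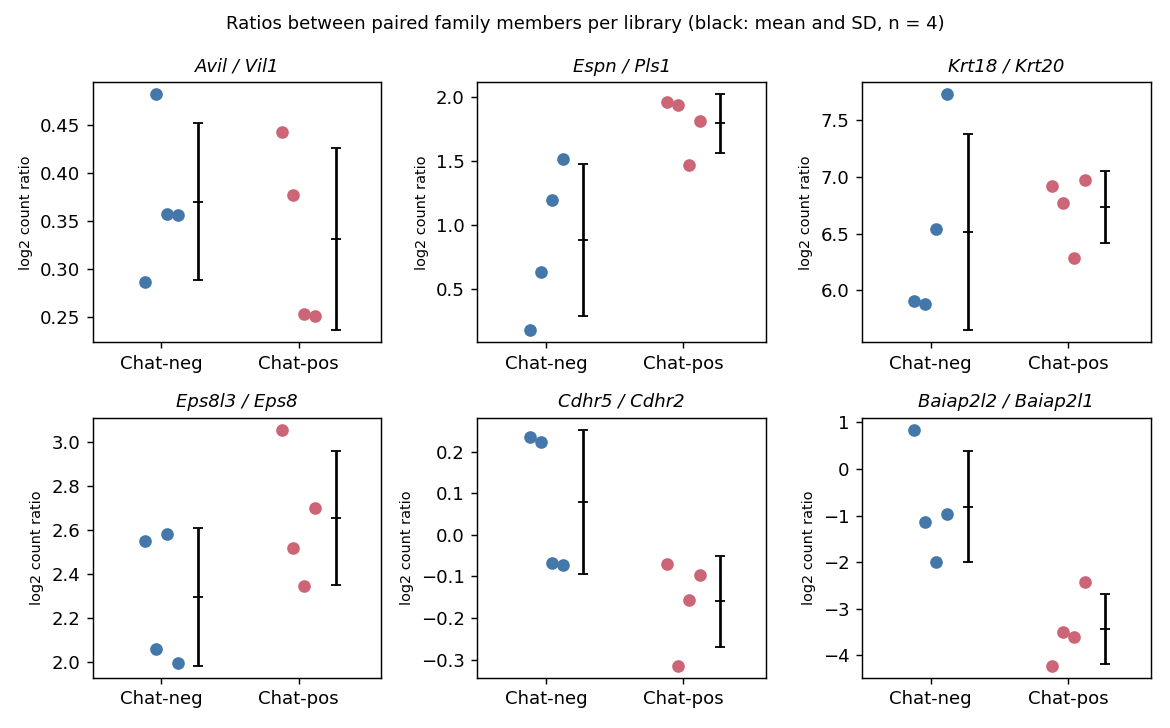
Log2 ratio of counts between 2 members of a family in each library (y axis), for 4 Chat-neg (blue) and 4 Chat-pos (red) libraries, with the mean and SD in black beside each group. The ratio of Baiap2l2 to Baiap2l1 lies between -1.99 and 0.85 in Chat-neg and between -4.23 and -2.42 in Chat-pos, while the groups overlap in the other 5 panels.

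The linkers of membrane to actin did not pass. Ezr, ezrin, which binds membrane proteins at one end and actin at the other, ran from 128 to 213 CPM in Chat-neg and from 162 to 228 CPM in Chat-pos (0.20 ± 0.20, edgeR adjusted p = 0.647). Slc9a3r1 encodes the scaffold NHERF1, which docks transporters on ezrin. It lay between 175 and 257 CPM in Chat-neg and between 261 and 280.4 CPM in Chat-pos, apart by a few CPM (0.27 ± 0.20, edgeR adjusted p = 0.474). Of the tested members 9 had all Chat-pos libraries above all Chat-neg libraries, as did 8.58% of all tested genes, and 1, Krt19, had them below, as did 5.42%.

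Krt18, the acidic keratin of simple epithelia and a tuft-type member, was by far the most abundant. It gave 12204, 19555, 20730.4 and 21318 CPM in Chat-neg and 27598, 24867, 21712 and 24394 CPM in Chat-pos. Chat-neg replicate 1 was again lowest, and Chat-pos replicate 3 exceeded Chat-neg replicate 4 only slightly. The log2 difference of 0.42 ± 0.21 did not pass (edgeR adjusted p = 0.251), nor in any of the 18 alternatives. Krt18 made up 58.9 ± 2.94% of the summed member CPM in Chat-neg and 59.5 ± 1.54% in Chat-pos (n = 4 each, ± SD).

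Krt8 is the basic partner with which keratin 18 pairs in filaments. Its values were 2210.5, 3586, 3619 and 3949 CPM in Chat-neg and 4789, 5049.8, 4436 and 5022 CPM in Chat-pos. All Chat-pos libraries were above, and the difference was 0.53 ± 0.21 (edgeR adjusted p = 0.14; DESeq2 adjusted p = 0.0319). Per kilobase of exon, the level of Krt18 was 7.53 ± 0.197 times that of Krt8 in Chat-neg and 6.96 ± 0.594 times in Chat-pos (n = 4 each, ± SD). Genes of keratins 8 and 18 are known for processed pseudogenes, and how reads that match several copies were counted is not given in the sources used here, so these levels are uncertain in that respect.

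Krt19 and Krt20 are the acidic keratins of ducts and progenitors and of mature surface cells. Krt19 read 209, 316, 279.7 and 281 CPM in Chat-neg and 29.2, 78.4, 99.7 and 193 CPM in Chat-pos. Each Chat-pos library was below each Chat-neg library, but the Chat-pos libraries differed several-fold among themselves. With -1.46 ± 0.52 it did not pass (edgeR adjusted p = 0.174). It was called lower without Chat-pos replicate 1 (-1.16 ± 0.26, edgeR adjusted p = 0.0103) and without Chat-pos replicate 4 (-1.99 ± 0.32, edgeR adjusted p = 0.00145), the lowest and the highest library of that gate. The same held with no filter on low counts (-1.22 ± 0.27, edgeR adjusted p = 0.00217). Krt20 read 198, 333, 222 and 99.5 CPM in Chat-neg and 228, 227, 279 and 194 CPM in Chat-pos. Its widest spread was in Chat-neg, between replicates 2 and 4, and the difference was 0.11 ± 0.26 (edgeR adjusted p = 0.873). The log2 count ratio of Krt18 to Krt20 differed by 0.22 ± 0.46 (SE; exact two-sided permutation test, p = 0.657, adjusted p = 0.657).

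Markers of other cell types also differed between the libraries. Goblet cell markers summed to 524 to 5526 CPM in Chat-neg and 308 to 1574 CPM in Chat-pos. Of 7 tested, edgeR called 1 lower, Clca1 (-3.06 ± 0.55, edgeR adjusted p = 0.00978), against 2.87% of all tested genes. DESeq2 called 2 lower, and 4 had an unadjusted p under 0.05 in edgeR. Zg16 (-2.58) and Tff3 (-2.01) were the most abundant. Clca1, Zg16 and Tff3 were highest in Chat-neg replicate 3. Without it the differences were -0.84 for Zg16, -1.05 for Tff3 and -2.25 for Clca1. Lymphocyte markers summed to 179.7 to 378 CPM in Chat-neg and 4.98 to 301 CPM in Chat-pos, with Gzma and Cd3g at -1.84 and -2.21. The 301 CPM came from Chat-pos replicate 2, and the other Chat-pos libraries had 4.98, 10.9 and 7.15 CPM. Of 5 tested, edgeR and DESeq2 called 0 (1 had an unadjusted p under 0.05), but edgeR called 5 lower without Chat-pos replicate 2 and 4 lower without Chat-pos replicates 2 and 3. Paneth cell markers reached 58889 and 31935 CPM in Chat-pos replicates 2 and 3, against at most 3535 CPM in Chat-neg, led by Defa24 (3.68) and Defa30 (3.82), of which edgeR called 0 of 9 and DESeq2 4 higher (4 had an unadjusted p under 0.05). Stem cell markers overlapped between the gates, with 0 of 6 called by edgeR or DESeq2 (1 had an unadjusted p under 0.05), Olfm4 at 0.47 and Slc12a2 at -0.24. Of 9 enteroendocrine markers 1 was tested and higher, Sct (0.85; the call was lost when Chat-neg replicate 2 was left out, and likewise Chat-pos replicate 1), and Chgb rested on Chat-neg replicate 4. The part of these cells in the keratin result was not tested.

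Both protocadherins of the intermicrovillar adhesion complex were among the 4 most abundant members per kilobase. Cdhr2 and Cdhr5 bind each other across neighbouring microvilli, and the scaffold Ush1c (harmonin), its partner Anks4b and the motor Myo7b hold their tails at the tip. Cdhr2 read 1175, 1542, 1752 and 1601 CPM in Chat-neg and 2501, 2721, 2276 and 2263 CPM in Chat-pos. The gates were well separated, with means of 1518 ± 245 and 2440.1 ± 217 CPM (n = 4 each, ± SD; log2 difference 0.68 ± 0.20, edgeR adjusted p = 0.041). When single libraries were left out, that call held in 1 of 8 fits, the one without Chat-neg replicate 1, and the edgeR adjusted p rose at most to 0.163 in the others. The gene lies on chromosome 13 from 54701461 to 54736662, plus strand.

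Cdhr5 read 1384, 1800.2, 1673 and 1523 CPM in Chat-neg and 2382, 2188, 2042 and 2115 CPM in Chat-pos. Here too the gates were apart, but the difference of 0.45 ± 0.20 did not pass (edgeR adjusted p = 0.191; DESeq2 adjusted p = 0.0299). Between the gates the log2 count ratio of Cdhr5 to Cdhr2 moved by -0.24 ± 0.10 (SE; exact two-sided permutation test, p = 0.0571, adjusted p = 0.114 over 6 ratios), so the protocadherins were not shown to change unequally. Per kilobase of exon the cytoplasmic partners were lower, with 42.1 (Ush1c), 25.4 (Anks4b) and 24.3 CPM per kb (Myo7b) over all libraries. Ush1c ran from 105 to 170.1 CPM in Chat-neg and from 167 to 215 CPM in Chat-pos (0.33 ± 0.20, edgeR adjusted p = 0.366), Anks4b had a difference of -0.02 ± 0.23 and Myo7b of 0.04 ± 0.20.

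Of the 5 other myosins none was called by edgeR, and none had an unadjusted p under 0.05 (0 of 5) or was called by DESeq2. Myo6, a motor that walks toward the base of the microvillus, was the most abundant in CPM, at 700 ± 84.7 in Chat-neg and 769 ± 105 in Chat-pos (n = 4 each, ± SD; 0.13 ± 0.20). Myo1a, the classic brush border myosin of enterocytes, was the 1 myosin with a negative difference, at -0.30 ± 0.21 (edgeR adjusted p = 0.469). It read 209, 397, 354 and 241 CPM in Chat-neg and 272, 274, 236 and 223 CPM in Chat-pos, so the Chat-pos values all lay within the Chat-neg range. Myo1d, which can share its place along microvilli, ran from 127 to 178 CPM in Chat-neg and from 168 to 201 CPM in Chat-pos (0.23 ± 0.20). Myo1e and Myo5b, the latter a carrier of recycling vesicles to the apical membrane, had differences of 0.04 ± 0.24 and 0.14 ± 0.24.

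Fbxl21 read 151, 103, 147 and 120.3 CPM in Chat-neg and 207, 181, 215 and 220.5 CPM in Chat-pos. Every Chat-pos library was above every Chat-neg library, and the difference was 0.69 ± 0.20 (edgeR adjusted p = 0.0353). With single libraries left out its call held in 2 of 8 fits, those lacking Chat-neg replicate 1 or 3, with an edgeR adjusted p of at most 0.204. It lies on chromosome 13 from 56522472 to 56537898, plus strand. Gas2l3, which links actin to microtubules in dividing cells, was too scarce to test, at 0 to 4.81 CPM in Chat-neg and 1.68 to 6.72 CPM in Chat-pos. Its 0 counts in Chat-neg replicate 1 allow up to 34.9 CPM there, counting 3 counts as the limit and counting error alone.

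**Figure D3:**
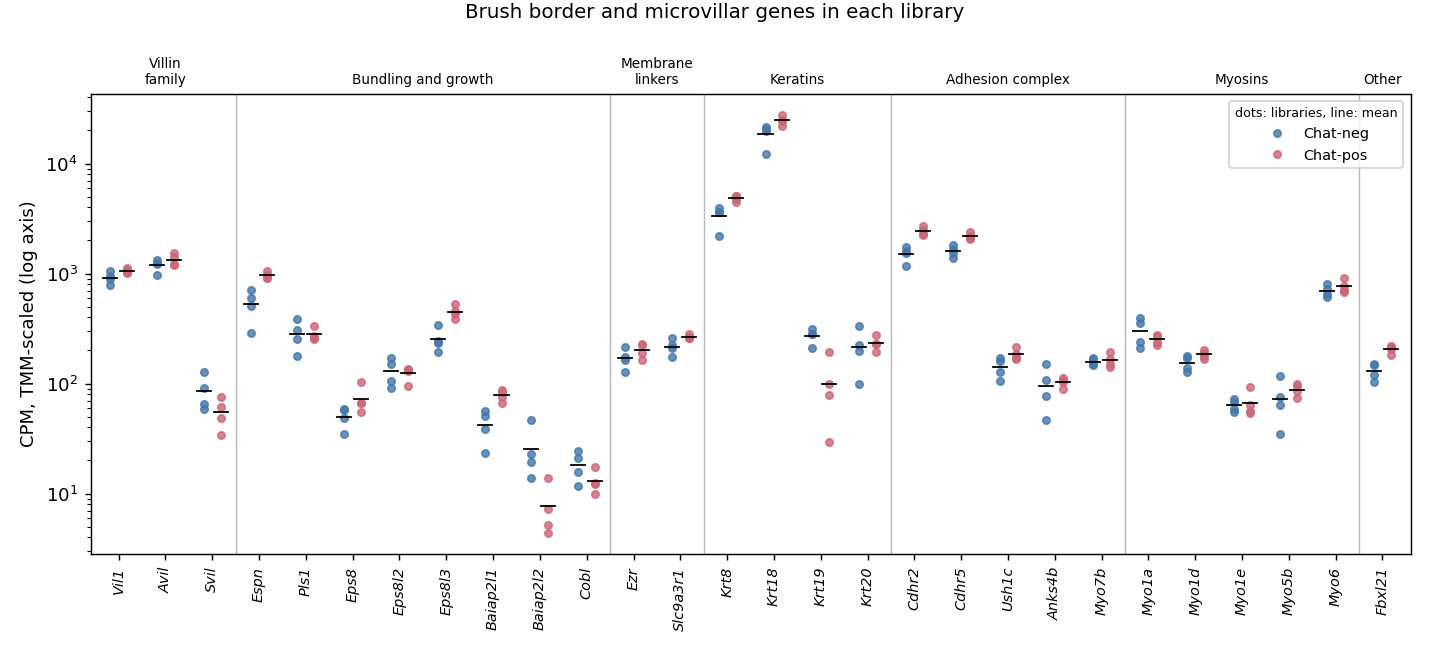
CPM of each tested member on a log axis (y axis), grouped by role, with 1 dot per library (blue Chat-neg, red Chat-pos) and a line at each mean. Krt18 and Krt8 stand highest, Baiap2l2 and Cobl lowest, and replicate 1 is the lowest Chat-neg dot for 18 of the 28 genes.

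Per kilobase of exon the order over all 8 libraries was Krt18 (14995 CPM per kb), Krt8 (2085), Cdhr5 (689), Cdhr2 (479), Avil (372), Vil1 (278), Eps8l3 (155) and Slc9a3r1 (126). The tuft-type label thus covered the first, the fifth and, with Espn at 89.96 CPM per kb, a gene in the middle of the order. The place of Espn depends on its pooled exon length of 8.27 kb. Eps8 (4.96), Cobl (1.91) and Gas2l3 (0.45) were last. Spread within a gate was larger in Chat-neg for 22 of 28 members, with a median coefficient of variation of 22.4% against 12.3% in Chat-pos, where the libraries were deeper.

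Set side by side, the 3 tuft-type members had differences of 0.17 (Avil), 0.42 (Krt18) and 0.84 (Espn), with 1 of 3 called higher. The 25 other tested members ran from -1.46 (Krt19) to 0.81 (Eps8l3) with a median of 0.14, and 3 were called higher. These 3 were Eps8l3, Cdhr2 and Fbxl21. The median over all tested genes was -0.02, and 3.62% of them were called higher. The tuft-type sum was 20166 ± 4528 CPM in Chat-neg and 26944 ± 2601 CPM in Chat-pos, and the sum of the others 10944.5 ± 1608 and 14403 ± 482 CPM (n = 4 each, ± SD). Most of the tuft-type sum was Krt18, which was not called, at 18452 CPM in Chat-neg and 24643 CPM in Chat-pos. Avil, of the tuft type, lay close to Vil1 of the other kind (0.17 and 0.20). Espn (0.84) lay close to Eps8l3 (0.81), the highest of the others, but not to the bundler Pls1 (-0.02).

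**Figure D4:**
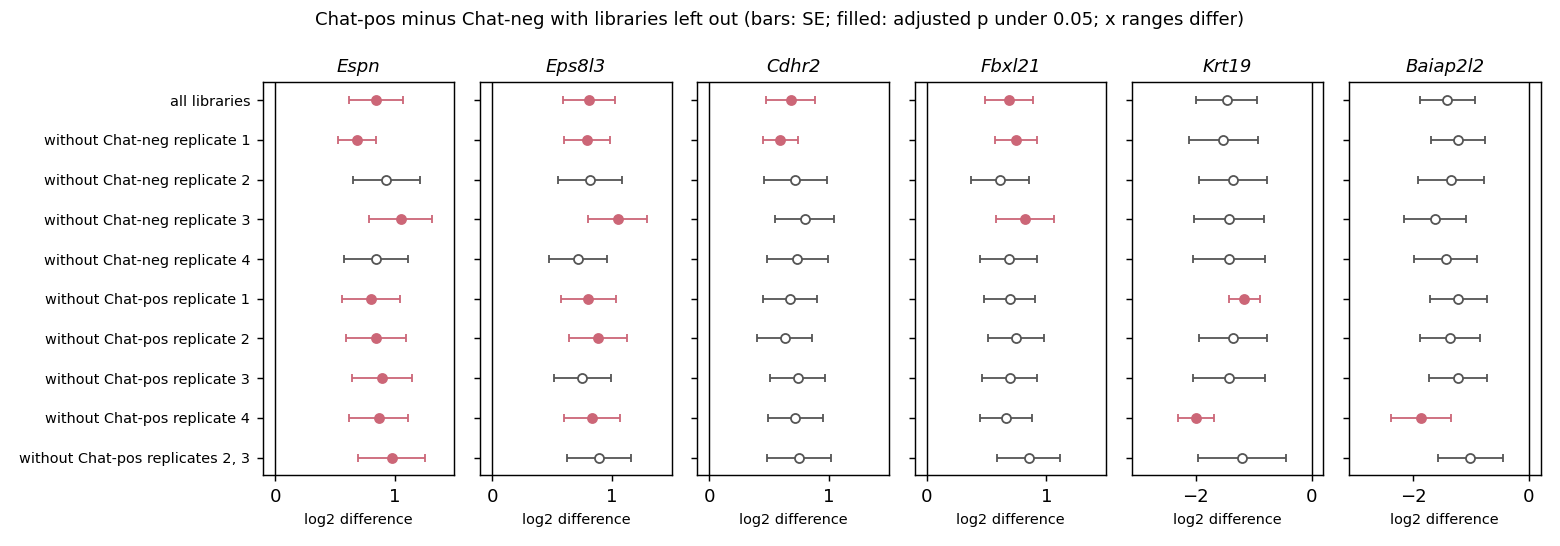
Log2 difference between Chat-pos and Chat-neg with its SE (x axis, ranges differ between panels) for the 4 called members and for Krt19 and Baiap2l2, with all libraries and with libraries left out (y axis). Filled points have an edgeR adjusted p under 0.05. In the 8 fits that leave out 1 library Espn lies between 0.68 and 1.05 and is called in 6, Eps8l3 in 5, Fbxl21 in 2 and Cdhr2 in 1.

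A wider list of 63 genes of the same structures that were not members gave 42 with enough counts. Of these 2 were higher and 1 lower, with a median of 0.22, against 3.62% higher and 2.87% lower over all tested genes. In edgeR 14 of the 42 had an unadjusted p under 0.05, against 10.9% of all genes higher and 9.88% lower. DESeq2 called 4 of the list higher and 1 lower. Krt23, a type I keratin, rose from 427 ± 59.2 to 1015 ± 107 CPM (n = 4 each, ± SD; 1.24 ± 0.21, edgeR adjusted p = 0.000365), and was called in all 18 alternatives. Its libraries were at 384, 368, 470.5 and 485 CPM in Chat-neg and 1077, 988, 877 and 1118 CPM in Chat-pos, well apart. Krt7, a type II keratin of ducts, had 31.7 ± 13.9 CPM in Chat-neg and fell to 10.6 ± 3.52 CPM (log2 -1.78 ± 0.37, edgeR adjusted p = 0.00318), and was also called in all 18. Chat-neg replicate 1, at 11.6 CPM, lay within the Chat-pos range, but that value rests on 1 count. In that library 3 counts equal 34.9 CPM, so its place is uncertain. Capzb, the beta subunit of the protein that caps the fast-growing end of actin filaments, rose by 0.67 ± 0.20 (edgeR adjusted p = 0.0368). It held in 2 of 8 fits with a library left out, those lacking replicate 1 of either gate. Actb, beta-actin itself, was the most abundant at 4097 ± 447 and 4138 ± 439 CPM (n = 4 each, ± SD; 0.01 ± 0.20, edgeR adjusted p = 0.986), and Calml4, the light chain of Myo7b, next at 0.40 ± 0.21.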

How the data were processed

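RNA from 4 Chat-neg and 4 Chat-pos libraries was read in single reads of 74 cycles, per the labels' protocols. The authors deposited 1 table of whole-number counts per gene, and the build GRCm38 is named per the submitters' processing notes. Which aligner, counter, annotation and strand setting were used is not given in the sources used here. The table held 53806 rows. The 36 rows without a gene name were left out, and 229 rows that share 114 symbols were summed by symbol. The rows without a name held 67.8 to 88.4% of the counts in the Chat-neg libraries and 58.6 to 64.6% in the Chat-pos libraries. The gates did not overlap in this share, and its part in the differences was not tested. Rows left out lower the usable depth, most in Chat-neg replicate 1, where 10 members had under 10 counts.

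Counts were tested with edgeR 4.0.16 (TMM scaling, filterByExpr, robust quasi-likelihood fit with group alone, Benjamini-Hochberg adjustment over 8919 genes, threshold 0.05). Differences are Chat-pos minus Chat-neg. CPM used the library totals of tested genes times the TMM factors. Ratios of members added 0.5 to each count and were compared by exact two-sided permutation tests in scipy 1.17.1. Libraries of a group differed beyond counting noise (chi-square per degree of freedom 5.53 to 30.2). Exon lengths, which pool all annotated exons of a gene, and gene positions are from GENCODE M21, and windows from RefSeq. The procedure was tested on simulated data. Alternatives were other scalings, filters, DESeq2 1.42.0, limma 3.58.1, a replicate block and left-out libraries.

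The members and lists were chosen with earlier results of these data known. Values per library are given for the tuft-type members, Vil1, called members and members of the 6 ratios. From each other list the called genes (at most 6, by p) and the 2 most abundant are named, except 1 gene that is not reported here. Krt8, Krt19, Cdhr5, Myo1a, Krt23 and Krt7 are also given per library, some of them chosen after their values were seen.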

Additional observations from a re-analysis of the deposited data

How the results depend on the processing

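Depth limited the members most in Chat-neg replicate 1, and the direction of the 4 called members held in all 18 alternatives. Against 4 members higher and 0 lower, 2 were higher with total count scaling, 2 higher and 1 lower with no filter on low counts, 1 lower with limma-voom, and 1 higher without both Paneth-rich Chat-pos libraries. Leaving out 1 library gave 0 to 4 higher and 0 to 2 lower members, 138 to 360 higher and 110 to 309 lower genes in all, and 1 to 3 higher and 1 to 2 lower other microvillar genes. All genes lower numbered 143 with no filter, 402 with limma-voom and 86 without the Paneth-rich pair. Other microvillar genes numbered 1 higher and 2 lower with total count scaling, 2 lower with no filter, 4 higher with DESeq2, 1 higher without the Paneth-rich pair and 5 higher without the shallowest library of each gate. The cause was not tested.

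The replicate numbers do not pair the libraries by label, and same-numbered libraries correlated at 0.11, 0.16, 0.0031 and 0.0017. With a replicate block 2 members were higher, Espn and Eps8l3, and 1 lower, Krt19 (-1.60, edgeR adjusted p = 0.00353), while Cdhr2 (edgeR adjusted p = 0.0984) and Fbxl21 (edgeR adjusted p = 0.0542) were not called, and 1 other microvillar gene was higher. The block also gave log2 differences of 0.030 for Anks4b, -0.055 for Myo1e and 0.030 for Pls1.

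Signs turned for several genes, none of them called in the main analysis, most of which lay near 0. Anks4b was at 0.00212 with RLE scaling, 0.20 with no filter, 0.00517 with the 5 CPM filter, 0.00413 with DESeq2 and 0.19 without the Paneth-rich pair. Pls1 was at 0.21, 0.00398 and 0.012 with no filter, the 5 CPM filter and that pair out, and Eps8l2 at 0.095 with no filter. Total count scaling gave -0.014 for Krt20, -0.081 for Myo1e, -0.0029 for Myo6, -0.088 for Myo7b and -0.12 for Actb. Myo1e was at -0.063 with limma-voom and -0.13 without the shallowest libraries. Actb was at -0.042 with upper-quartile scaling, -0.033 with limma-voom and -0.026 without the shallowest libraries. Without the Paneth-rich pair Defa24, Defa30 and Olfm4 were at -1.57, -1.88 and -3.999. Leaving out 1 library gave ranges of -0.041 to 0.11 (Actb), -0.13 to 0.28 (Anks4b), -0.18 to 0.21 (Pls1), -0.26 to 0.078 (Eps8l2), -0.12 to 0.48 (Krt20), -0.15 to 0.16 (Myo1e), -0.052 to 0.12 (Myo7b), -0.69 to 2.26 (Olfm4) and -0.48 to 0.51 (Slc12a2).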
